A study of Mus musculus with 24 samples.

Results

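The genes described here are 9 genes of antibody Fc receptors, their signalling adaptors and the kinase that the adaptors recruit, in whole mouse liver. They were chosen by symbol (Fcgr1, Fcgr2b, Fcgr3, Fcgr4, Fcgrt, Fcer1g, Tyrobp, Syk and Hcst), and each matched 1 row of a table of 56205 genes. The liver RNA came from male and female C57BL/6J mice with no engineered allele, 8 to 10 weeks old at the start and kept on a diet for 20 weeks. A group of 12 mice received a high-fat diet (FFD in the labels), with palm oil fat, fructose and cholesterol, and the other 12 its control diet. Each of the 24 poly(A) RNA libraries is from bulk liver, so that fewer cells of a type and less RNA per cell cannot be told apart.

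Fc receptors bind the constant part of antibodies. Fcgr1, Fcgr3 and Fcgr4 encode activating receptors for IgG, which carry no signalling motif of their own and depend on the common gamma chain encoded by Fcer1g. The cytoplasmic tail of that chain holds an immunoreceptor tyrosine-based activation motif (ITAM), and once its paired tyrosines are phosphorylated they recruit the kinase Syk. Tyrobp (DAP12) is a second ITAM adaptor, used by receptors such as Trem2, and Hcst (DAP10) is a related adaptor that signals to phosphoinositide 3-kinase through a YxxM motif instead. Fcgr2b encodes the inhibitory IgG receptor, whose tail holds an inhibitory motif (ITIM), and which in liver is made mainly by sinusoidal endothelial cells. Fcgrt encodes the neonatal Fc receptor, an MHC class I-like protein that rescues IgG and albumin from degradation and is made by hepatocytes as well as endothelial cells and macrophages.

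The coding bases behind these motifs are shown because they are the signalling motifs of the adaptors and of the inhibitory receptor, read 5′ to 3′ from GENCODE M21 transcripts of GRCm38 with the tyrosine codons in capitals.
Fcer1g ITAM: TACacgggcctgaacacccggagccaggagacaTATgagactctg
Tyrobp ITAM: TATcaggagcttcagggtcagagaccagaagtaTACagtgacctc
Hcst YxxM: TACatcaacatg
Fcgr2b ITIM: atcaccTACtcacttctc
Searched with the ITAM pattern (a tyrosine, 2 residues, a leucine or isoleucine, 6 to 12 residues, and the same again), only Fcer1g and Tyrobp of the 9 translated coding sequences held a match, with 1 each. The looser YxxM pattern also matched 3 times in Syk. The ITIM pattern is looser still and matched in Fcgr1, Fcgr4, Fcgrt, Fcer1g and Tyrobp, so that such a match describes letters and no signalling site.

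Fcgr2b and Fcgr3 are alike in their coding sequences, with 83.7% identical bases over 787 aligned coding bases, against 58.7% to 63.3% for the other pairs of Fcgr genes. Their longest shared stretch runs over 129 coding bases and is shown because reads within it cannot be assigned to 1 gene by sequence.
Fcgr2b and Fcgr3: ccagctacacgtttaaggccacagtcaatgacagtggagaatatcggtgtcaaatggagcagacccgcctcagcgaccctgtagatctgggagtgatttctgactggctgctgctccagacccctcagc
Of all stretches of 50 bases in their transcripts, 9.58% of those of Fcgr3 and 2.92% of those of Fcgr2b were found in the other gene, and 6.95% of those of Fcgr2b in any other gene. The other 7 genes shared none with any gene. Counts of Fcgr3 and Fcgr2b are therefore uncertain by the reads that fell there, and how they were treated in counting is not stated for the mouse libraries.

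Bases just before the transcription start are shown for the IgG receptors, because they differ there in a short motif, GAGGAA. It is the core of sites bound by PU.1, a transcription factor of myeloid cells, and was searched on both strands of RefSeq promoters (GRCm38, 250 bases before to 50 after each start). Each line gives the 80 bases before the start on the gene's own strand, with the core (TTCCTC when read on the opposite strand) or the longer GAGGAAGT (ACTTCCTC) in capitals.
Fcgr1, chr3:96293970-96294049, minus strand: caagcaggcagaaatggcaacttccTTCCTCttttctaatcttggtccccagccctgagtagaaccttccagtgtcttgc
Fcgr3, chr1:171059404-171059483, minus strand: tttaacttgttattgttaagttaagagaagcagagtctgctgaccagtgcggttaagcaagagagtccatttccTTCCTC
Fcgr4, chr1:171018846-171018925, plus strand: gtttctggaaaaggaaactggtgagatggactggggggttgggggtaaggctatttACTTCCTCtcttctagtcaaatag
Fcgr2b, chr1:170976072-170976151, minus strand: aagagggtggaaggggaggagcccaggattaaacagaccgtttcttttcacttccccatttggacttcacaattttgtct
The core was in the promoters of Fcgr1, Fcgr3 and Fcgr4 (at positions -55, -6 and -22 from the start) and in 1 of the 2 promoters of Syk (at -9). The promoter of Fcgr3 shown is 1 of 2, both inside the span of the gene given below, and the other holds the core at -15. The core was in none of those of Fcgr2b, Fcgrt, Fcer1g and Hcst, and the longer motif was in that of Fcgr4 alone. Tyrobp had no promoter among those searched. Of all 32851 mouse promoters, 28.3% hold the core and 3.2% the longer motif, so a match in these windows is common and describes letters only.

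On the GRCm38 assembly, Fcgr2b (chr1:170958617-170976547), Fcgr4 (chr1:171018920-171029761), Fcgr3 (chr1:171051174-171064935) and Fcer1g (chr1:171229572-171234365) lie in 1 cluster, with Fcgr4 on the plus strand and the others on the minus strand. Fcgr1 is apart on chr3:96282909-96293969, Syk is on chr13:52583173-52648792 and Fcgrt on chr7:45092990-45103851. Tyrobp (chr7:30413760-30417585) and Hcst (chr7:30417712-30419854) end towards each other on opposite strands, 126 bases apart. Gene models overlapping Fcgr2b (Gm38204) and Fcgrt (Gm45669) lie on the opposite strand, and reads of such models cannot be told apart if counting ignored strand. Mir6546 overlaps Fcgr3 and Gm26110 overlaps Fcgr4 on the same strand, where strand does not separate the reads either.

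Libraries held 14468418 to 22112552 counts. Replicates 1 to 6 of each diet had 2664 to 6285 counts of Xist, a transcript of the inactive X chromosome, and replicates 7 to 12 had 0 to 3. The labels give no sex for a library, so values are also given within these sets of libraries with Xist above and below 1000 counts (6 per diet in each). The sets are not conditions, and what separates them cannot be told apart from the numbering. Control replicate 10 stood apart in scaling (TMM factor 0.679, against 0.851 to 1.34 in the others) and held the fewest counts. Levels are CPM, counts per 1000000 of the TMM-scaled library total, and a gene was called where the quasi-likelihood test of edgeR gave a Benjamini-Hochberg adjusted p no higher than 0.01 and the log2 fold change was beyond 0.5 in either direction.

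Of the 9 genes, 7 rose on the high-fat diet and none fell: the 3 activating IgG receptors, the adaptors Fcer1g, Tyrobp and Hcst, and Syk. The inhibitory receptor Fcgr2b and the neonatal receptor Fcgrt did not pass the test. Across all 17913 genes tested, 13.2% were called higher, 4.99% lower and 18.2% in either direction. The median log2 fold change was 1.45 over the 9 genes and -0.03 over all genes. All 9 passed the filter on low counts.

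Of the activating receptors, Fcgr1, the high-affinity receptor for IgG, had 7.77 to 24.8 CPM (median 12.3) on the high-fat diet and 1.12 to 10.01 CPM (median 3.44) on the control diet. Its level was above every control library in 9 of 12 high-fat diet libraries, and the overlap came from control replicate 6. The log2 fold change was 1.79 ± 0.28 (SE; edgeR, adjusted p = 2.08e-05), a 3.46-fold higher level. This was the largest rise of the 9 genes.

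For Fcgr3, a low-affinity receptor present on most myeloid cells and on natural killer cells, the range was 10.5 to 25.2 CPM (median 14.3) on the high-fat diet and 1.89 to 10.9 CPM (median 4.69) on the control diet. Only 1 high-fat diet library was not above all controls. The log2 fold change was 1.501 ± 0.26 (SE; edgeR, adjusted p = 7.97e-05). Fcgr4, which binds IgG2a and IgG2b on monocytes, macrophages and neutrophils, had 8.29 to 23.5 CPM (median 11.2) against 2.22 to 11.2 CPM (median 4.35). Here 6 of 12 high-fat diet libraries lay above all controls, and the log2 fold change was 1.26 ± 0.27 (SE; edgeR, adjusted p = 0.000646).

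The inhibitory receptor Fcgr2b was the most counted of the 4 Fcgr genes and differed little between the diets: 27.0 to 44.9 CPM (median 40.4) on the high-fat diet and 26.4 to 54.2 CPM (median 42.3) on the control diet. Its means were 39.5 ± 4.39 and 41.6 ± 10.6 CPM (SD, n = 12 each). The groups overlapped throughout, and the log2 fold change was -0.08 ± 0.12 (SE; edgeR, adjusted p = 0.635). Scaling by library totals alone turned the sign (0.19, adjusted p = 0.275) while moving the median of all genes to 0.26. The control libraries spread more widely than those on the high-fat diet, and all 6 with Xist above 1000 lay above all 6 with Xist below 1000, as for 2.78% of all genes tested.

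Fcgrt had the most counts of the 9 genes. It had 172 to 259 CPM (median 208) on the high-fat diet and 197 to 424 CPM (median 219) on the control diet, with means of 210 ± 29.1 and 244 ± 63.3 CPM (SD, n = 12 each). The groups overlapped, with 5 of 12 high-fat diet libraries below every control. The log2 fold change was -0.22 ± 0.11 (SE; edgeR, adjusted p = 0.125). The value of 424 CPM was that of control replicate 10, against at most 284 in the other controls, and without it the log2 fold change was -0.12 (adjusted p = 0.267). Under library totals alone it was 0.09 (adjusted p = 0.454).

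Among the adaptors, Fcer1g had 18.6 to 49.6 CPM (median 26.6) on the high-fat diet and 5.03 to 19.8 CPM (median 9.49) on the control diet. In 11 of 12 high-fat diet libraries it was above every control, and control replicate 6 was again the highest control. The log2 fold change was 1.45 ± 0.20 (SE; edgeR, adjusted p = 5.04e-06). Tyrobp ran almost level with it, with 23.3 to 49.1 CPM (median 27.3) against 3.84 to 21.8 CPM (median 9.02). All its high-fat diet libraries lay above all controls, as for 1.48% of all genes tested, and the log2 fold change was 1.52 ± 0.24 (SE; edgeR, adjusted p = 3.07e-05).

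The third adaptor, Hcst, is used in lymphocytes mainly by the receptor encoded by Klrk1. It had 7 to 25 counts per library on the high-fat diet (0.338 to 1.33 CPM, median 0.814) and 1 to 13 on the control diet (0.0566 to 0.713 CPM, median 0.395). At so few counts the groups overlapped in 4 of 12 high-fat diet libraries. The log2 fold change was 1.01 ± 0.30 (SE; edgeR, adjusted p = 0.00806), which is close to the threshold. It was no longer called without high-fat diet replicate 1, 3, 5, 6, 8, 9, 10 or 11 or control replicate 1, 2, 4, 7, 8 or 9, left out singly, when the log2 fold change ran from 0.93 to 1.02 and the adjusted p from 0.0107 to 0.0152. With no filter on low counts it also missed the threshold (adjusted p = 0.013).

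Syk, the kinase that docks on phosphorylated ITAMs, had 12.3 to 25.1 CPM (median 15.5) on the high-fat diet and 3.16 to 11.4 CPM (median 5.75) on the control diet. As for Tyrobp, the groups did not overlap, and these were the only 2 of the 9 genes of which this held. The log2 fold change was 1.46 ± 0.20 (SE; edgeR, adjusted p = 4.91e-06), the smallest adjusted p of the 9.

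**Figure D1:**
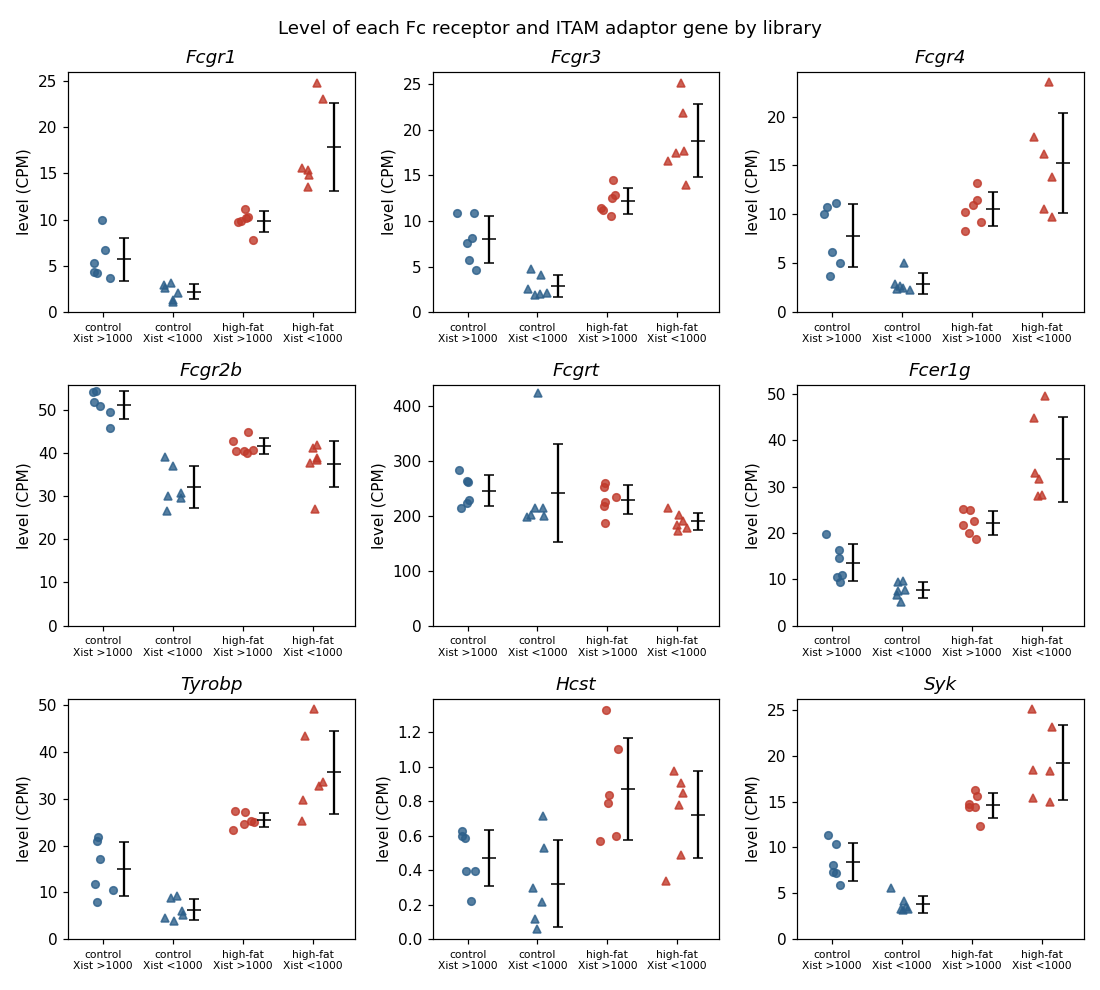
Level of each of the 9 genes in CPM (linear axis from 0) in every library, by diet (blue, control; red, high-fat) and by set of libraries (circle, Xist above 1000 counts; triangle, below), with the mean and SD of the 6 libraries as a black bar. Tyrobp and Syk separate the diets, with Tyrobp between 23.3 and 49.1 CPM on the high-fat diet and at most 21.8 CPM on the control diet, whereas Fcgr2b and Fcgrt overlap.

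Per kilobase of exon (the union of exons in GENCODE M21), the order of the levels on the control diet was Fcgrt, Tyrobp, Fcer1g, Fcgr2b, Fcgr4, Fcgr3, Fcgr1, Syk and Hcst. Fcgrt stood far above the rest at 116 ± 30.1 CPM per kb (SD, n = 12). Tyrobp (15.9 ± 9.29) and Fcer1g (12.1 ± 4.9) overlapped, as did Fcgr4 (4.27 ± 2.73) and Fcgr3 (3.13 ± 1.9), and Syk (0.652 ± 0.304) and Hcst (0.547 ± 0.3). On the high-fat diet Tyrobp reached 45.8 ± 12.2 and Fcer1g 33.2 CPM per kb (21.3 to 56.8). Fcgr2b (6.82 ± 0.758) then ranked below Fcgr4 (10.3 ± 3.5) and Fcgr3 (8.93 ± 2.6), having ranked above both at 7.18 ± 1.83 on the control diet. The ranges overlapped on the high-fat diet (4.66 to 7.76 for Fcgr2b, 6.6 to 18.7 for Fcgr4 and 6.07 to 14.5 for Fcgr3). This order rests on exon unions of 5790, 1256 and 1736 bases. In CPM, Fcgr2b kept the highest mean of these on the high-fat diet (39.5, against 12.9 for Fcgr4 and 15.5 for Fcgr3).

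The size of the change differed between the sets of libraries for 6 of the 9 genes, all except Fcgr2b, Fcgrt and Hcst, by the interaction term of an edgeR fit of diet and set over all 24 libraries. Across all genes tested, 4.06% had a called interaction (adjusted p of at most 0.01). In separate fits of each set, Fcgr1 in the libraries with Xist below 1000 counts was 8.25-fold higher on the high-fat diet (log2 fold change 3.04 ± 0.26, SE), against 1.73-fold in the others (0.79 ± 0.21). The interaction term was 2.24 ± 0.34 on the log2 scale (SE; edgeR, adjusted p = 0.000176).

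Fcgr3 had a log2 fold change of 2.71 ± 0.24 with Xist below 1000 and 0.62 ± 0.18 above (interaction adjusted p = 0.000176, edgeR). Fcgr4 had 2.40 ± 0.25 and 0.44 ± 0.23 (interaction adjusted p = 0.0012, edgeR). Both receptors thus showed the same direction in both sets and a larger change in the set with low Xist. For the adaptors and Syk the changes below and above 1000 were 2.26 ± 0.19 and 0.72 ± 0.16 for Fcer1g (adjusted p = 0.000521), 2.55 ± 0.23 and 0.77 ± 0.20 for Tyrobp (adjusted p = 0.000947), and 2.35 ± 0.18 and 0.81 ± 0.15 for Syk (adjusted p = 0.0002). Values for the 3 genes without a called interaction were 0.24 ± 0.12 and -0.29 ± 0.07 for Fcgr2b (adjusted p = 0.0189), -0.33 ± 0.18 and -0.09 ± 0.10 for Fcgrt (adjusted p = 0.529), and 1.26 ± 0.49 and 0.89 ± 0.33 for Hcst (adjusted p = 0.747). Fcgr2b gained a called interaction without high-fat diet replicate 9, control replicate 9 or control replicate 11, left out singly (0.57, 0.58 and 0.56), and under library totals alone (0.85).

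Calls within a set did not follow these sizes in every gene. With Xist above 1000, Fcer1g (0.72) was called, but Fcgr1 (0.79), Tyrobp (0.77) and Hcst (0.89) were not. Hcst passed in neither set (edgeR, adjusted p = 0.0575 with Xist below 1000 and 0.0867 above). With Xist below 1000, 6 of the 9 genes were called higher (Fcgr1, Fcgr3, Fcgr4, Fcer1g, Tyrobp and Syk), where 14.3% of all genes were, and in each of the 6 all high-fat diet libraries lay above all controls, as for 12.6% of all genes tested. With Xist above 1000, 2 of the 9 were called higher (Fcer1g and Syk), where 2.91% of all genes were. Fcgr1 (adjusted p = 0.02), Tyrobp (0.0177) and Fcgr3 (0.0341) missed the threshold in that set, as did Fcgr4 (0.225), while all 6 libraries were above all controls for Tyrobp and Syk, as for 3.51% of all genes tested. Fcgr2b there lay below every control in 6 of 6 high-fat diet libraries (39.9 to 44.9 CPM against 45.7 to 54.2), as for 2.39% of all genes tested, and its adjusted p of 0.0153 did not pass.

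**Figure D2:**
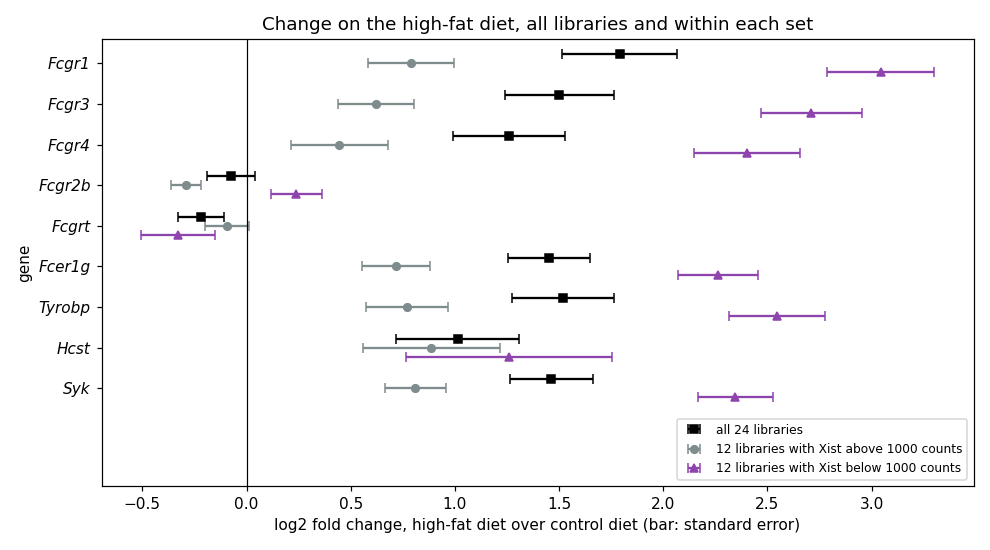
Log2 fold change of each gene, high-fat diet over control diet, with its standard error, in all 24 libraries (square) and within the 12 libraries with Xist above (circle) and below (triangle) 1000 counts. For Fcgr1 the change is 0.79 above and 3.04 below 1000 counts, and the triangles lie right of the circles for all genes but Fcgrt.

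The sets stood in opposite order on the 2 diets. On the control diet Fcgr1 had 3.7 to 10.01 CPM in libraries with Xist above 1000 and 1.12 to 3.17 CPM in those below, with no overlap. On the high-fat diet it had 7.77 to 11.2 CPM above and 13.5 to 24.8 CPM below, again with no overlap and in the reverse order. Of all genes tested, 2.78% had no overlap in the first of these orders on the control diet and 4.71% in the second on the high-fat diet. Tests within a diet, chosen after these values had been seen, gave log2 differences (Xist below minus above) of -1.36 ± 0.29 on the control diet (SE; edgeR, adjusted p = 0.00884) and 0.87 ± 0.15 on the high-fat diet (adjusted p = 0.00116).

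Most of the other members stood in the same order on the control diet. There Fcgr2b (-0.65, adjusted p = 0.00157), Fcgr3 (-1.44, 0.00378), Fcgr4 (-1.40, 0.0064), Tyrobp (-1.26, 0.00852) and Syk (-1.12, 0.00196) were lower with Xist below 1000, and Fcer1g (-0.82, 0.0191) missed the threshold. Over all genes, 1.91% were called lower in that comparison. On the high-fat diet Fcgr3 (0.64, adjusted p = 0.00323) and Fcer1g (0.71, 0.00314) were higher with Xist below 1000, where 4.04% of all genes were called higher. Tyrobp (0.50, adjusted p = 0.0152), Syk (0.40, 0.0306) and Fcgr4 (0.54, 0.0531) did not pass. Fcgrt (-0.26, adjusted p = 0.0433), Hcst (-0.26, 0.613) and Fcgr2b (-0.14, 0.286) had values in the other direction and did not pass either. On the high-fat diet, replicates 7 and 10 were the 2 highest libraries for Fcgr1, Fcgr3, Fcer1g, Tyrobp and Syk.

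Ratios of counts within a library do not depend on scaling and show unequal change of 2 transcripts. Each activating receptor rose against the inhibitory receptor. The ratio of Fcgr1 to Fcgr2b counts was 0.193 to 0.599 on the high-fat diet and 0.0374 to 0.185 on the control diet, with all 12 high-fat diet libraries above all controls. On the log2 scale the difference of the means was 1.99 (-1.59 ± 0.583 against -3.58 ± 0.621, SD; permutation p = 2e-05, the smallest that 100000 two-sided resamples can give; adjusted p = 6.67e-05 over 10 ratios). For Fcgr3 to Fcgr2b it was 1.75, again with no overlap (0.247 to 0.649 against 0.0652 to 0.216), and for Fcgr4 to Fcgr2b 1.49, with 11 of 12 above all controls (permutation test, adjusted p = 6.67e-05 for both).

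Within each set these 3 ratios also differed between the diets, by 1.15, 0.963 and 0.829 with Xist above 1000 (exact permutation p = 0.00216, 0.00216 and 0.00433) and by 2.83, 2.55 and 2.15 below (0.00216 for each, the smallest that 6 against 6 can give). The 2 ITAM adaptors kept nearly equal counts: Tyrobp to Fcer1g was 0.9 to 1.28 on the high-fat diet and 0.684 to 1.34 on the control diet, and the log2 difference of 0.21 did not pass (permutation test, adjusted p = 0.0775). Without control replicate 4 or 5 it did (0.26 and 0.24; adjusted p = 0.0195 and 0.0423). Syk to Fcer1g differed by 0.09 (adjusted p = 0.46). Hcst to Tyrobp differed by -0.58 (adjusted p = 0.138), and without control replicate 4 or 11 by -0.75 and -0.77 (adjusted p = 0.0497 and 0.0393).

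Set against Ptprc, which encodes the leukocyte surface protein CD45, Tyrobp was higher on the high-fat diet by 0.43 on the log2 scale (0.53 ± 0.175 against 0.0958 ± 0.388, SD; permutation test, adjusted p = 0.0042), although the groups overlapped. Ptprc had the smallest change of the 4 pan-leukocyte markers (log2 fold change 1.13), and those of Coro1a (1.52), Cd53 (1.62) and Laptm5 (1.75) were like that of Tyrobp (1.52) or above it, so the ratio is to Ptprc alone. Fcer1g to Ptprc differed by 0.22 (adjusted p = 0.117), and without control replicate 10 by 0.29 (adjusted p = 0.0222). Against Stab2, a scavenger receptor of sinusoidal endothelial cells, Fcgr2b was lower by 0.59 (-0.86 ± 0.36 against -0.27 ± 0.286, SD; permutation test, adjusted p = 0.00015), and Stab2 itself rose (log2 fold change 0.57 ± 0.16, SE; edgeR, adjusted p = 0.00605). Of the 5 sinusoidal endothelial markers Stab2 alone was called, and the others had log2 fold changes of -0.47 (Clec4g), -0.13 (Oit3), 0.11 (Gpr182) and 0.28 (Lyve1) beside -0.08 for Fcgr2b. Fcgrt was higher against Alb, the albumin gene, by 0.58 (permutation test, adjusted p = 0.0093), and Alb itself fell (-0.72 ± 0.18, SE; edgeR, adjusted p = 0.00211).

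**Figure D3:**
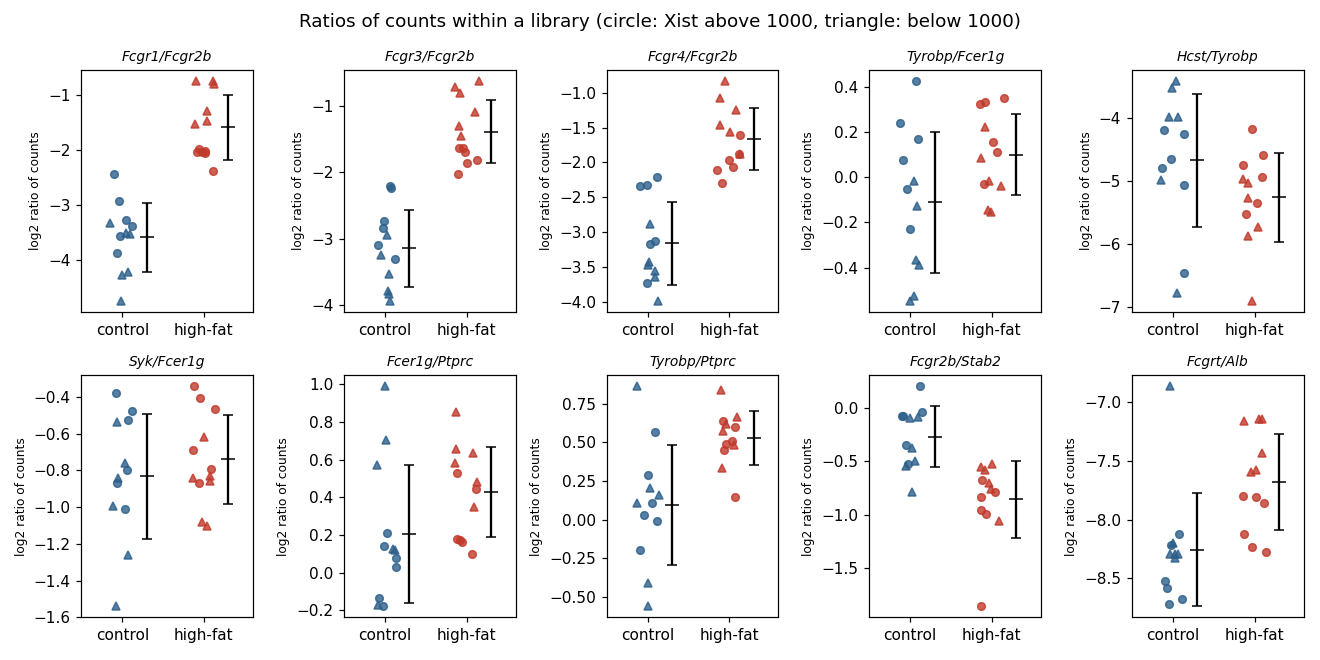
Log2 ratio of the counts of 2 genes in each library for the 10 pairs compared, by diet (blue, control; red, high-fat), with the mean and SD of 12 libraries as a black bar and an axis of its own for each pair. The ratios of Fcgr1 and Fcgr3 to Fcgr2b do not overlap between the diets, while Syk to Fcer1g has means of -0.74 and -0.83.

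Receptors that signal through Fcer1g, Tyrobp or Hcst mostly rose with them: 10 of the 16 tested were called higher and none lower, with a median log2 fold change of 1.66 (13.2% of all genes were called higher). Trem2, a lipid-sensing receptor of macrophages paired with Tyrobp, had 19.4 CPM on the high-fat diet and 1.72 CPM on the control diet on average (log2 fold change 3.47 ± 0.35, SE; edgeR, adjusted p = 1.82e-07). Clec5a, another partner of Tyrobp, had 2.82 ± 0.36 (adjusted p = 2.55e-06), from few counts (means of 0.948 CPM and only 0.124 CPM on the control diet). Itgb2, the beta chain of leukocyte integrins, had 1.72 ± 0.23 (adjusted p = 5.02e-06). The lowest value was that of Oscar, a partner of Fcer1g (-0.03 ± 0.56, adjusted p = 0.976). Trem1 and Gp6 had at most 3 counts in every library.

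Over all 24 libraries, other Fc and antibody receptors did not move as a group. The share called higher was near that of all genes (13.2%). Of 9 tested, 1 was called higher: Fcrls, an Fc receptor-like scavenger molecule of macrophages, at 3.02 ± 0.67 (SE; edgeR, adjusted p = 0.000862) from a mean of only 0.0689 CPM on the control diet. The median over the list was 0.08, and the lowest value was that of Fcamr, a receptor for IgA and IgM, at -0.55 ± 0.47 (adjusted p = 0.377). Within the sets the median was -0.15 with Xist above 1000 and 1.16 below, and no gene of the list had a called interaction. Fcer1a, the IgE-binding chain that also partners Fcer1g, had at most 3 counts in every library, and it was not tested, nor were Ms4a2 and Fcrl5.

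Of the other chains with an ITAM of their own, 2 of 8 rose, where 13.2% of all genes did. Both are lectin-like receptors with a single-tyrosine form of the motif. Clec7a (Dectin-1) had a log2 fold change of 2.47 ± 0.29 (SE; edgeR, adjusted p = 1.07e-06) and Clec1b (CLEC-2) 0.83 ± 0.18 (adjusted p = 0.00061). The T cell and B cell receptor chains did not pass over all 24 libraries, the lowest being Cd3e at 0.28 ± 0.34 (adjusted p = 0.552). Within the sets the median of the 8 chains was -0.12 with Xist above 1000 and 1.42 below, and none had a called interaction.

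Downstream of the motifs, 11 of 21 kinases and adaptors rose and none was called lower (median 0.71). Of all genes, 13.2% were called higher and 4.99% lower. Prkcd, a protein kinase C isoform, had 0.89 ± 0.10 (SE; edgeR, adjusted p = 9.48e-07), Pik3cd, a leukocyte phosphoinositide 3-kinase, 1.53 ± 0.19 (adjusted p = 1.91e-06), and Fgr, a Src family kinase of myeloid cells, 1.48 ± 0.19 (adjusted p = 1.98e-06). Zap70, the relative of Syk used by T cells, had the lowest value (-0.96 ± 0.30, adjusted p = 0.0136) and did not pass. Its mean was 11.6 CPM on the high-fat diet and 22.8 CPM on the control diet, where it ran from 7.19 to 71.4 CPM. The T cell gene Cd3e had means of 0.723 and 0.592 CPM, and which cells gave the Zap70 counts was not tested.

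Most of the inhibitory receptors and phosphatases listed rose as well, unlike Fcgr2b: 13 of 18 were called higher and 1 lower (median 1.12). Ptpn11 (-0.04), Csk (0.01), Cblb (0.18) and Cbl (0.38) did not pass. The median was 0.56 with Xist above 1000 and 1.89 below. Over all genes these shares were 13.2% and 4.99%. Sirpa, the inhibitory receptor for CD47, had 2.03 ± 0.21 (SE; edgeR, adjusted p = 1.89e-07). The adaptor Dok1 had 1.07 ± 0.14 (adjusted p = 4.91e-06) and Inpp5d (SHIP1), the phosphatase that Fcgr2b recruits, 1.24 ± 0.17 (adjusted p = 5.04e-06). Ceacam1, which hepatocytes also make, fell by 0.61 on the log2 scale (adjusted p = 0.00149).

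**Figure D4:**
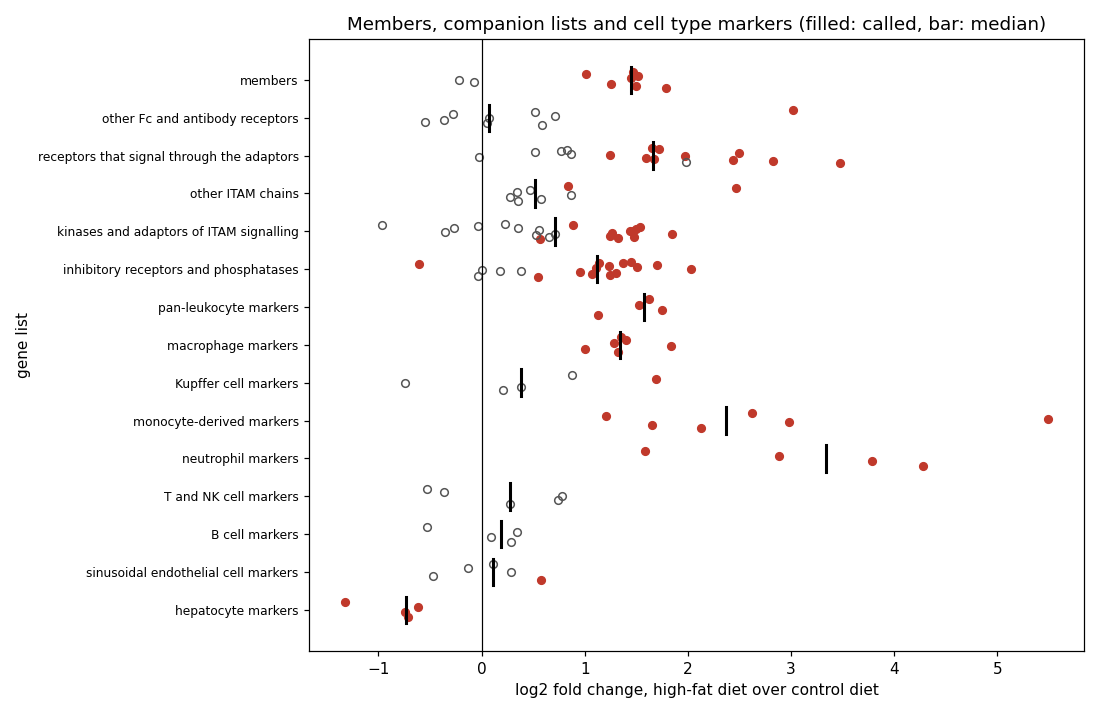
Log2 fold change, high-fat diet over control diet, of each tested gene in the 9 members, the companion lists and the cell type marker lists (filled red, called; open, not called; black bar, median of the list). The members' median is 1.45, that of receptors that signal through the adaptors 1.66 and that of other Fc and antibody receptors 0.08.

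Leukocyte and macrophage markers moved with the members, and their part in the result was not tested. All 4 pan-leukocyte markers and all 6 macrophage markers were called higher, with medians of 1.57 and 1.34, where 13.2% of all genes were. The summed level of the macrophage markers was 430 to 904 CPM (median 504) on the high-fat diet and 111 to 457 CPM (median 211) on the control diet. It followed the sets as the members did: 206 to 457 CPM with Xist above 1000 and 111 to 215 CPM below on the control diet, and 430 to 508 CPM and 490 to 904 CPM on the high-fat diet. All 4 pan-leukocyte and all 6 macrophage markers had a called interaction of diet and set, where 4.06% of all genes did. So did 2 of 5 T and NK cell markers (Nkg7 and Cd8a), 1 of 5 Kupffer cell markers (Cd5l) and 1 of 4 neutrophil markers (Csf3r), and none of the monocyte-derived macrophage, B cell, sinusoidal endothelial or hepatocyte markers.

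Markers of other cell types differed among themselves. All 6 monocyte-derived macrophage markers rose (median 2.37; summed level 129 to 924 CPM against 45.0 to 158 CPM). On the control diet Spp1 (mean 43.5 CPM) and Cd9 (23.2 CPM) led that sum, and the others had means of at most 2.0 CPM. Spp1 alone ran from 26.3 to 729 CPM on the high-fat diet, so the sum follows it closely. But 1 of 5 Kupffer cell markers rose, Cd5l (1.69, adjusted p = 1.26e-05), where 13.2% of all genes did. The median of the Kupffer cell markers was 0.38. Summed levels of the Kupffer cell markers were 170 to 779 CPM on the high-fat diet and 109 to 468 CPM on the control diet. Within them Cd5l had a mean of 259.5 CPM against 80.2 CPM. Clec4f (log2 fold change 0.20), Vsig4 (0.38), Marco (0.88) and Timd4 (-0.74) did not pass. Marco reached 118 CPM on the high-fat diet, where its mean was 15.1 CPM. The 4 neutrophil markers tested rose (summed level 6.17 to 165 CPM, median 8.58, against 1.73 to 6.97 CPM, median 3.24; the fifth, Ly6g, was not tested). The value of 165 CPM was that of high-fat diet replicate 3, with 66.2 CPM of S100a8 against at most 1.46 in the other high-fat diet libraries, which summed to at most 13.9 CPM. Without that library S100a8 (1.55, adjusted p = 0.00294), S100a9 (1.004, 0.00477) and Csf3r (1.56, 4.36e-06) were still called and Retnlg was not (0.76, 0.154). Of the T and NK cell markers 0 of 5 were called (summed level 2.51 to 5.41 CPM against 0.707 to 7.75 CPM), and of the B cell markers 0 of 4 (14.2 to 57.6 CPM against 20.8 to 92.2 CPM). The median log2 fold change of the T and NK cell markers was -0.59 with Xist above 1000 and 1.42 below. That of the B cell markers was -0.27 and 0.82. Mast cell markers were at 0 or nearly so, with a summed level of at most 0.266 CPM in any library.

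For the members that did not pass, the matching markers were those of sinusoidal endothelial cells, of which 1 of 5 was called higher (median 0.11; summed level 91.7 to 312 CPM against 107 to 251 CPM), and of hepatocytes, of which all 4 were called lower (median -0.73; 32500 to 83600 CPM against 70800 to 120000 CPM). Of all genes, 13.2% were called higher and 4.99% lower. Hepatocyte markers were the most abundant markers in every library, as the labelled tissue implies.

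Within the groups, the members tracked different genes, given here as a description. After subtracting the mean of each diet and set, log2(CPM + 1) over the 24 libraries was most like that of Tyrobp for C1qb (Pearson's r = 0.961), C1qc (0.922) and Fcer1g (0.905), among 13928 genes with a mean of at least 10 counts. The genes most like Fcer1g were C1qb (0.933), Tyrobp (0.905) and Cd52 (0.904). C1qb and C1qc encode chains of complement C1q, made by macrophages. Syk was most like Sla (0.864), 2510009E07Rik (0.852) and Lgmn (0.847).

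Fcgr2b had other neighbours: Oit3 (0.855), a gene of sinusoidal endothelial cells, Slc22a27 (0.825) and Mospd2 (0.816). Its r was 0.549 with Fcgr3, 0.504 with Syk, 0.492 with Fcgr4, 0.318 with Fcer1g and 0.256 with Tyrobp. Fcgrt was most like Stard10 (0.948), Atraid (0.944) and D8Ertd738e (0.943), and its r with Fcgr2b was -0.0194. All points of these correlations share library and scaling, and control replicate 10, high in Fcgrt, is among them.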

How the data were processed

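Poly(A) RNA of whole livers was sequenced by the authors, who deposited whole-number counts per Ensembl gene for 24 libraries, without normalization. Their processing notes name bcl2fastq, STAR 2.7.3a and mm10. The study's methods name a stranded mRNA kit without naming the mouse libraries, and the exon quantification pipeline and PISCES for reads aligned to the human genome. The program, annotation and strand setting of the mouse counts are not given in the sources used here. GENCODE M21 gave symbols for 51745 of 56205 IDs and lacks the rest (0.0723% of counts), so M21 positions may differ from the models counted.

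Diet was read from the labels, and separate animals are implied by 6 mice per diet and sex. The 17913 genes with 1 count or more in 12 or more libraries were tested with edgeR 4.0.16 in R 4.3.3 (TMM, quasi-likelihood, Benjamini-Hochberg over all of them), checked on simulated data. The SE is the log2 fold change over the root of F. Ratios added 0.5 counts and used permutation tests in scipy, Benjamini-Hochberg over 10. Thresholds are the study's for RNA-seq. DESeq2 1.42.0, limma-voom 3.58.1, other scalings, filters, thresholds, a replicate block and leaving out each library were alternatives. Added after seeing the data were alternatives of the interaction, the tests between sets within a diet and the neutrophil markers without 1 library. The genes, the lists and the split by Xist were chosen with earlier results of these data known. From each companion list the text names up to 3 called genes with the smallest adjusted p and the one with the lowest fold change. Of the cell type marker lists, only some genes are named. For 5 members it names the 3 genes most alike.

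Depth was 14468418 to 22112552 counts, so that levels under 1 CPM rest on few counts.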

Additional observations from a re-analysis of the deposited data

Results flagged for a closer look

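In 6 of the 9 genes the change on the high-fat diet differed between the libraries with Xist below and above 1000 counts, by the interaction test. The interaction terms (below minus above, log2 scale) were 2.24 for Fcgr1, 2.08 for Fcgr3, 1.95 for Fcgr4, 1.54 for Fcer1g, 1.77 for Tyrobp and 1.52 for Syk. The replicate numbers divide the libraries in the same way, so that these cannot be told apart. Groups of 12 libraries are too large for the check on single outlying samples.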

How the results depend on the processing

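The 6 members called higher besides Hcst were called under every alternative except within the libraries with Xist above 1000, where 2 members were called higher (Fcer1g and Syk). Leaving out single libraries gave 6 to 7 members called higher and 0 lower. Fcgr2b turned sign under library totals (0.19) and with Xist below 1000 (0.24), and Fcgrt under library totals (0.0855), where its interaction also did (0.15). Hcst could not be fitted with at least 10 counts in every library.

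Over all genes, leaving out single libraries gave 2137 to 2464 called higher and 745 to 995 lower. Library totals gave 3827 and 226 (median log2 fold change 0.26 against -0.03), a higher share than with TMM, and 1333 interactions against 728. With Xist above 1000 there were 525 and 162, and with Xist below 1430 lower. Calling at 0.05 with no minimum fold gave 3709 and 3388, a log2 fold change over 1 gave 216 lower, and at least 10 counts in every library left 1226 higher. Interactions without single libraries numbered 493 to 1181 over all genes (1181 without control replicate 11) and 6 to 7 among members. Causes were not tested.

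Of the ratios, Hcst to Tyrobp passed with a prior of 2 counts (-0.79, adjusted p = 0.0353) and by medians (-0.70, 0.0387), and gave 0.0199 with Xist above 1000, and -0.77 to -0.43 without single libraries. Fcer1g to Ptprc passed with Xist above 1000 (0.24, adjusted p = 0.0464; 0.18 to 0.29 without single libraries) and Tyrobp to Fcer1g below (0.32, 0.0476; 0.17 to 0.26). Below 1000, Tyrobp to Ptprc (0.52) and Fcgr2b to Stab2 (-0.30) lost the threshold.

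Same-numbered libraries correlated from -0.0961 to 0.578 in their deviations from the diet means, and 2 of 12 were most like their own number. These deviations still hold the differences between the sets, so they cannot show whether the numbers pair the samples. The replicate block gave 2063 higher and 844 lower genes and 7 higher members, and Tyrobp to Fcer1g (0.21) and Fcer1g to Ptprc (0.22) passed, with adjusted p = 0.0439 (exact permutation).

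Depth limits Hcst, at 1 to 25 counts per library.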
